A study of Mus musculus with 10 samples.

Results

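Each of 22359 protein-coding genes of the mouse was given 1 of 16 promoter states, according to which of 4 histone marks had a peak within 2500 bp of any of its protein-coding transcription start sites (TSSs). The marks were H3K4me3, H3K27ac, H3K27me3 and H2AK119ub, and their 4 peak lists came from cells with functional SCL (WT). Of the 70826 peaks of the series, 36876 were in these 4 lists. The comparison is between marks within 1 genotype. There was 1 library per mark, so no value below has a replicate check, and no test between groups of samples was possible.

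The cells were the mCherry-positive mesoderm of day 4 embryoid bodies (EBs), aggregates in which mouse embryonic stem cells differentiate. They were sorted by flow cytometry for an mCherry reporter placed at the *Scl* locus, so the sort takes cells in which this locus is active. The genotype label of all 4 libraries is Scl wt. The strain was given as C57Bl/6 X Sv129 in the H2AK119ub label, with another final number in each of the other 3 labels. No treatment was listed. *Drosophila* S2 cells had been added to the mouse cells as a spike-in, in a ratio of 2 mouse cells to 1 S2 cell. SCL (TAL1) is a basic helix-loop-helix factor without which no blood forms. The mutant libraries of the series (Delta, Scl d/d in the labels) lack the DNA-binding domain of SCL and are used in 1 comparison only.

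The 4 marks belong to opposing systems. H3K4me3 is laid down at the start sites of genes with unmethylated, CG-rich promoters, and H3K27ac at active promoters and enhancers. H3K27me3 is the product of Polycomb repressive complex 2, with the methyltransferase EZH2. H2AK119ub is the product of Polycomb repressive complex 1, whose ligases are RING1 and RNF2. Promoters with both H3K4me3 and H3K27me3 are called bivalent, and were first described at developmental genes of embryonic stem cells.

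The promoters below were chosen to show what the sequences of 6 states look like, with 1 gene from the gene lists for each. Each runs from 150 bases before to 50 bases after the most 5′ TSS, in mm9, and is printed 5′ to 3′ on the strand of the gene with every CG in capitals. The genes are *Alb*, which encodes serum albumin (no mark, chr5:90889765-90889965, + strand), *Ndufs7*, a subunit of respiratory complex I (H3K4me3 alone, chr10:79711716-79711916, + strand) and *Rplp0*, a protein of the ribosomal stalk (H3K4me3 and H3K27ac, chr5:116009326-116009526, + strand). They are followed by *Syt1*, the calcium sensor of synaptic vesicles (H3K4me3 and H3K27me3, chr10:108447988-108448188, - strand), *Irx3*, a homeobox factor (H3K4me3, H3K27me3 and H2AK119ub, chr8:94325503-94325703, - strand) and *Mael*, a germ line gene of the piRNA pathway (H3K27me3 alone, chr1:168168825-168169025, - strand).
Alb: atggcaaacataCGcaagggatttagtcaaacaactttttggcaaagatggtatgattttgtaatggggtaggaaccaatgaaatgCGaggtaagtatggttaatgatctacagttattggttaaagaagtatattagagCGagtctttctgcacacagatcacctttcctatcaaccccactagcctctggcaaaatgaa
Ndufs7: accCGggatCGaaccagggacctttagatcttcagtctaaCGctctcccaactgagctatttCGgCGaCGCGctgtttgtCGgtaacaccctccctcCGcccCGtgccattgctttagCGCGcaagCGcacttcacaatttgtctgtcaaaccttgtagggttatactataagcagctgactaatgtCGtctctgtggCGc
Rplp0: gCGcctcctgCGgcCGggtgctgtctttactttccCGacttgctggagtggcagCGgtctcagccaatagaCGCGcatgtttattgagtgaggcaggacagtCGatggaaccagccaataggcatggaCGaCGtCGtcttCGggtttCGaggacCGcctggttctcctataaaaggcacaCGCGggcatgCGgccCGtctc
Syt1: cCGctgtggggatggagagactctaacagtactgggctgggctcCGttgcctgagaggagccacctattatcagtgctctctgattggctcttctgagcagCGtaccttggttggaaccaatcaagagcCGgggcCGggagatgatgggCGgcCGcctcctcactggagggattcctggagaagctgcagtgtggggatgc
Irx3: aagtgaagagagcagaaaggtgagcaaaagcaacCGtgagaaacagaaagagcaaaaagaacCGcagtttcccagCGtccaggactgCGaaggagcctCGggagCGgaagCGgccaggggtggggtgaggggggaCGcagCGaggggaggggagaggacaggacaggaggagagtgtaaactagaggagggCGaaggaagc
Mael: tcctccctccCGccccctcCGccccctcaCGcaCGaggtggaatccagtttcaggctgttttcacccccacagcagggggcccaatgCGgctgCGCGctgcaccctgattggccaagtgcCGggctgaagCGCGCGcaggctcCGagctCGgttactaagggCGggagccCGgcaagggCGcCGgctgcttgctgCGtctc
In these 201 bases *Alb* had 3 CG dinucleotides and *Syt1* 7, *Irx3* had 10 and *Ndufs7* 15, and *Rplp0* and *Mael* had 18 each. *Alb*, the gene without a mark, had the fewest of the 6.

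At *Rpl32*, which encodes a protein of the large ribosomal subunit, the 3 peaks lay within 1 stretch of the gene. The H3K4me3 peak ran over 3146 bp with a fold enrichment of 10.6. The H3K27ac peak measured 775 bp and the H3K27me3 peak 884 bp, with fold enrichments of 5.71 and 5.44. At *Irx3* the H3K27me3 peak spanned 15661 bp with a fold enrichment of 8.55, around an H3K4me3 peak of 3168 bp. 2 H2AK119ub peaks of 2183 bp and 5340 bp lay inside it. At *Hoxc10*, a posterior Hox gene, the H3K27me3 peak was 142467 bp long, and the H2AK119ub peak 6298 bp. *Syt1* had an H3K27me3 peak of 3719 bp over an H3K4me3 peak of 1657 bp, and *Mael* had an H3K27me3 peak of 585 bp. *Rplp0* had an H3K4me3 peak of 2587 bp and an H3K27ac peak of 230 bp, and *Ndufs7* an H3K4me3 peak of 1665 bp. Fold enrichment here is the value of the peak caller over its local background, and it can be compared only within the list of 1 mark.

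The 4 lists differed in size and strength. H3K4me3 had 16038 peaks with a median length of 1270 bp, H3K27ac had 4571 with a median of 541 bp, H3K27me3 had 11345 with a median of 1304 bp and H2AK119ub had 4922 with a median of 717 bp. A −log10 q of 3 or more was reached by 14359 H3K4me3 peaks, 2900 H3K27ac peaks, 6398 H3K27me3 peaks and 99 H2AK119ub peaks. The median −log10 q of H2AK119ub peaks was 1.87, close to the limit of the list at a q of 0.05, so a gene without such a peak cannot be said to lack the mark. Of all genes, 13561 or 60.7% had H3K4me3, 7791 or 34.8% had H3K27me3, 4440 or 19.9% had H3K27ac and 2060 or 9.21% had H2AK119ub. The share of peaks that came within 2500 bp of a coding TSS was 85.1% for H3K27ac and 81.1% for H3K4me3, but 66.1% for H3K27me3 and 53.4% for H2AK119ub.

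Genes were found in 13 of the 16 states, and 7 states held all but 458 of the genes. No mark was found at 8178 genes (36.6%; 95% Wilson interval 35.95 to 37.2). H3K4me3 alone was found at 4131 genes (18.5%; 17.97 to 18.99). H3K4me3 with H3K27me3 and without H3K27ac or H2AK119ub, called the bivalent state below, held 3259 genes (14.6%; 14.1 to 15.0). In all states together, 7235 genes (32.4%) had both H3K4me3 and H3K27me3. H3K4me3 with both H3K27ac and H3K27me3 held 2266 genes (10.1%; 9.75 to 10.5), and H3K4me3 with H3K27ac alone held 2033 (9.09%; 8.72 to 9.48). The state with H3K4me3, H3K27me3 and H2AK119ub held 1622 genes (7.25%; 6.92 to 7.60). H3K27me3 alone was found at 412 genes (1.84%; 1.67 to 2.03). All intervals cover counting error only, and neighbouring genes are not independent.

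The 6 small states were H3K27me3 with H2AK119ub (144 genes, 0.644%), H3K4me3 with H2AK119ub (129 genes, 0.577%), all 4 marks (88 genes, 0.394%), H2AK119ub alone (44 genes, 0.197%), H3K4me3 with H3K27ac and H2AK119ub (33 genes, 0.148%) and H3K27ac alone (20 genes, 0.0894%). The 3 states with no gene were those with H3K27ac in the absence of H3K4me3 and in the presence of H3K27me3, H2AK119ub or both. A count of 0 among 22359 genes allows a share of up to 0.0134%.

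**Figure D1:**
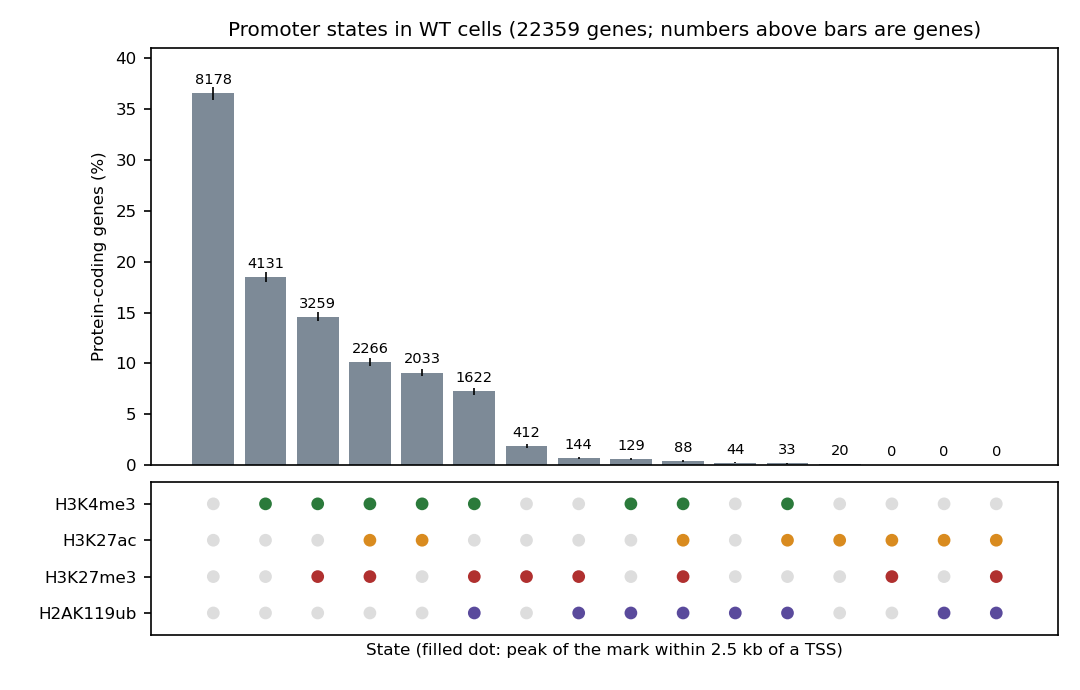
Share of 22359 protein-coding genes (y axis, percent) in each of the 16 promoter states of WT cells, with the marks of each state shown as filled dots under its bar, the number of genes above it and the 95% Wilson interval as a line. The no-mark state is the tallest bar with 8178 genes, and the 3 states on the right hold 0 genes.

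To ask how the marks were combined, the share of genes with 1 mark that carried another was compared with the share among genes without the first mark. Of 4440 genes with H3K27ac, 99.5% had H3K4me3 (95% Wilson interval 99.3 to 99.7), against 51.0% of genes without H3K27ac. Of 7791 genes with H3K27me3, 92.9% had H3K4me3 (92.3 to 93.4), against 43.4% of the rest. The 2 Polycomb marks were found together at 1854 genes. This was 90% of the genes with H2AK119ub (88.6 to 91.2) and 23.8% of those with H3K27me3 (22.9 to 24.8), and 29.2% of the genes without H2AK119ub had H3K27me3. H3K27ac and H3K27me3 were found together at 2354 genes. This was 53.0% of the genes with H3K27ac, against 30.3% of those without it. It was 30.2% of the genes with H3K27me3, against 14.3% of those without that mark. Nearly all H3K27ac genes had H3K4me3, and 53.4% of all H3K4me3 genes had H3K27me3, close to the 53.0%. H3K27ac and H2AK119ub met at 121 genes only, 2.73% of the H3K27ac genes (2.29 to 3.25), against 10.8% of the genes without H3K27ac. All of these shares depend on which weak peaks were listed. With peaks of −log10 q of at least 3, 58 genes kept H2AK119ub, and 29.2% of H3K27ac genes had H3K27me3.

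A shared window does not mean a shared position, so the peaks themselves were overlapped. At genes with both marks, an H3K4me3 and an H3K27me3 peak shared at least 1 bp at 96.2% of 7235 genes, and H3K27ac and H3K27me3 peaks did so at 92.1% of 2354 genes. H3K27me3 and H2AK119ub peaks overlapped at 94.4% of 1854 genes. Within the TSS windows of the 1854 genes, the median share of H2AK119ub bases that lay under H3K27me3 was 100%. H3K4me3 and H2AK119ub peaks overlapped at 68.1% of 1872 genes, with a median of 220.5 bp in common. H3K27ac and H2AK119ub peaks overlapped at 30 of 121 genes (24.8%; 17.95 to 33.2). With at least 500 bp in common, the share for H3K27ac and H3K27me3 was 33.1%. The lists come from a cell population, so marks on the same nucleosome, on the 2 alleles or in different cells cannot be told apart. In the state with H3K4me3, H3K27ac and H3K27me3, the 2000 distinct H3K27me3 peaks had a median −log10 q of 2.90. Whether such weak peaks reflect the mark itself was not tested.

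The H3K27me3 peaks differed in length between states. The lengths of all peaks at a gene were summed. The median for H3K27me3 was 618.5 bp in the state with H3K4me3 and H3K27ac (quartiles 382 and 985 bp), 2160 bp in the bivalent state (795.5 and 3916 bp) and 5934 bp where H2AK119ub was also present (3546 and 10005 bp). It was 1708 bp for H3K27me3 alone and 4573 bp for H3K27me3 with H2AK119ub. Lengths of 5 kb or more were found at 0.794% of the genes with H3K4me3, H3K27ac and H3K27me3, at 14.8% of the bivalent genes and at 59.1% of those with H2AK119ub. The 88 genes with all 4 marks had a median H3K27me3 length of 2506 bp. In the state with H3K27ac, 46.65% of 2000 distinct H3K27me3 peaks reached a −log10 q of 3, against 88.5% of 1668 in the state with H3K4me3 and H2AK119ub.

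H3K4me3 peaks differed in length as well. Among the 5 large states with this mark, their median summed length was 2429 bp with H3K27ac and H3K27me3, 1960 bp with H3K27ac, 1319 bp in the bivalent state, 1384 bp with H3K27me3 and H2AK119ub and 1299 bp for H3K4me3 alone. The 88 genes with all 4 marks had a higher median of 2916 bp. The median H3K4me3 fold enrichment at a gene was 9.70, 8.20, 6.497, 5.31 and 6.75 in the same order. The state with short H3K27me3 peaks thus had the highest H3K4me3 medians of these 5, in length and in fold enrichment. The median H2AK119ub length was 1052 bp beside H3K4me3 and H3K27me3 (quartiles 549 and 2196 bp). Beside H3K4me3 it was 671 bp (393 and 860 bp).

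**Figure D2:**
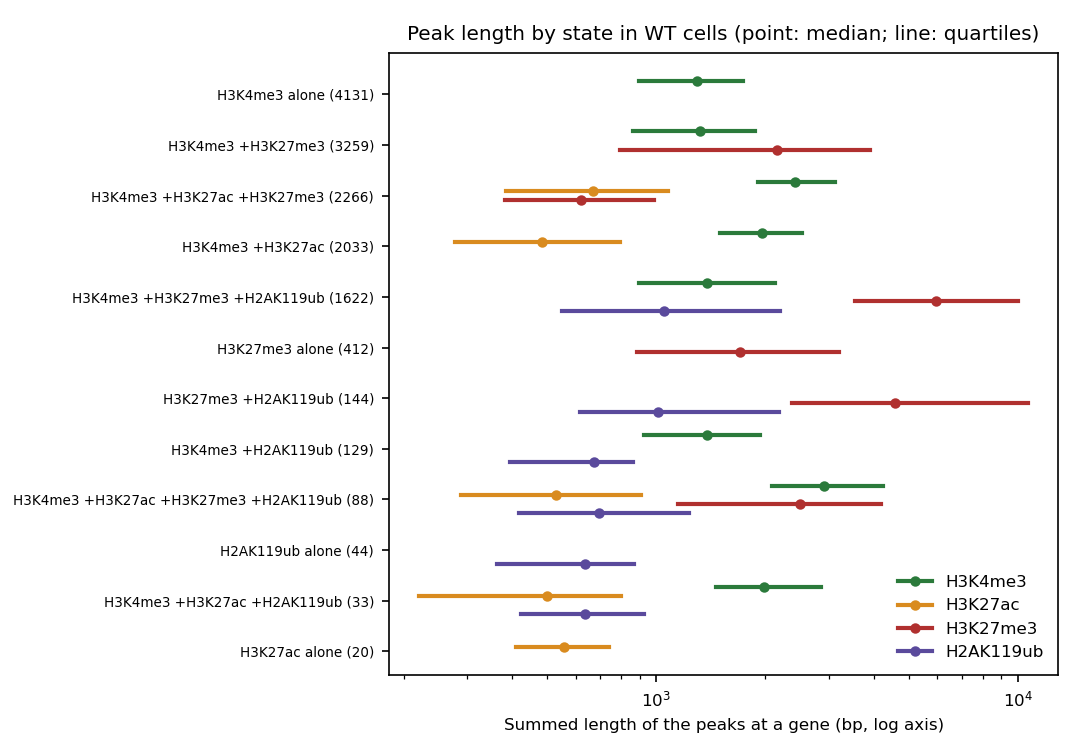
Summed length of the peaks of each mark at a gene (x axis, bp, log axis) for the 12 states with a mark, with the number of genes in brackets. Points are medians and lines span the quartiles over genes; H3K27me3 is shortest with H3K4me3 and H3K27ac (618.5 bp) and longest with H3K4me3 and H2AK119ub (5934 bp).

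The same lengths and marks were then read the other way, with genes with H3K27me3 grouped by its length, whatever their state. This regroups the values above and is no second observation of them. H2AK119ub was found at 2.12% of 1511 genes with under 500 bp of H3K27me3 (95% Wilson interval 1.504 to 2.97), at 13.7% of 1694 genes with 1000 bp and under 2500 bp (12.1 to 15.4), at 55.9% of 1065 genes with 5000 bp and under 10000 bp (52.9 to 58.8) and at 85.4% of 522 genes with 10000 bp or more (82.2 to 88.2). H3K27ac went the other way, from 58.9% of genes under 500 bp (56.4 to 61.4) to 1.15% at 10000 bp or more (0.528 to 2.49). H3K4me3 was present at 89.6% to 96.3% of genes in every length class. A longer peak has more room to meet any other peak, and the part of this in the H2AK119ub shares was not tested. Among genes with H3K4me3, H3K27ac was found at 5 of 660 with under 500 bp of H3K4me3 (0.758%) and at 64.2% of 2441 with 2500 bp and under 5000 bp.

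**Figure D3:**
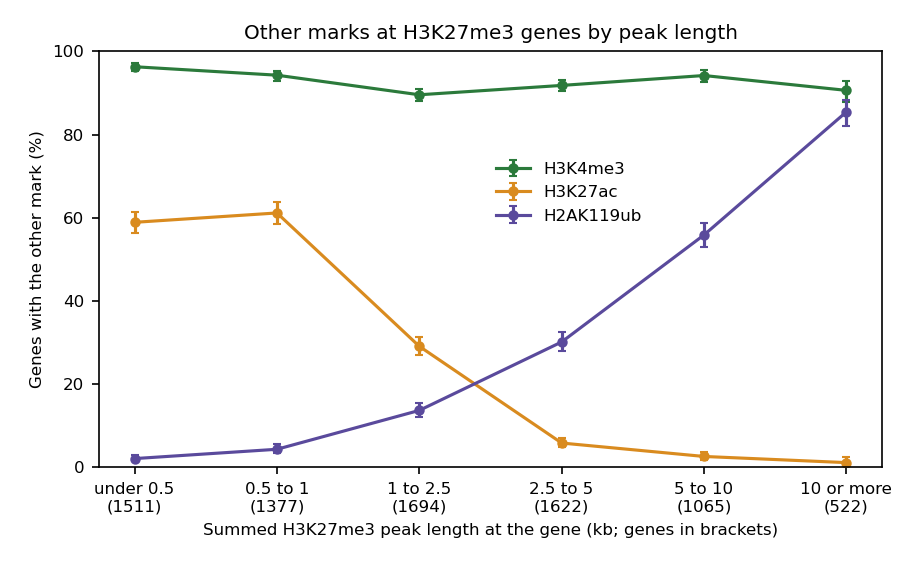
Share of genes with H3K4me3, H3K27ac or H2AK119ub (y axis, percent, with 95% Wilson intervals) among genes with H3K27me3, grouped by the summed length of their H3K27me3 peaks (x axis, kb). H2AK119ub goes from 2.12% in the shortest class to 85.4% in the longest and H3K27ac from 58.9% to 1.15%, while H3K4me3 stays at or above 89.6%.

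The marks also differed in where they lay around the most 5′ TSS. The share of genes under a peak was taken every 250 bp. In the state with H3K4me3, H3K27ac and H3K27me3, H3K27me3 covered the TSS itself at 22.4% of genes and the position 250 bp downstream at 60.2%, and H3K27ac covered 39.0% and 74.9%. H3K4me3 covered 91.3% and 95.7%. All 3 marks were at their maximum 250 bp downstream. In the state with H3K4me3, H3K27me3 and H2AK119ub, H3K27me3 covered 79.9% of genes at the TSS and 30.8% at 5000 bp downstream, so it spread well beyond the H3K4me3 peaks, which covered 70.7% and 4.25%. H2AK119ub covered 17.7% of genes at the TSS, less than the 39.2% at 1000 bp downstream and the 22.0% at 1000 bp upstream and more than the 6.10% at 5000 bp upstream and the 9.56% at 5000 bp downstream.

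**Figure D4:**
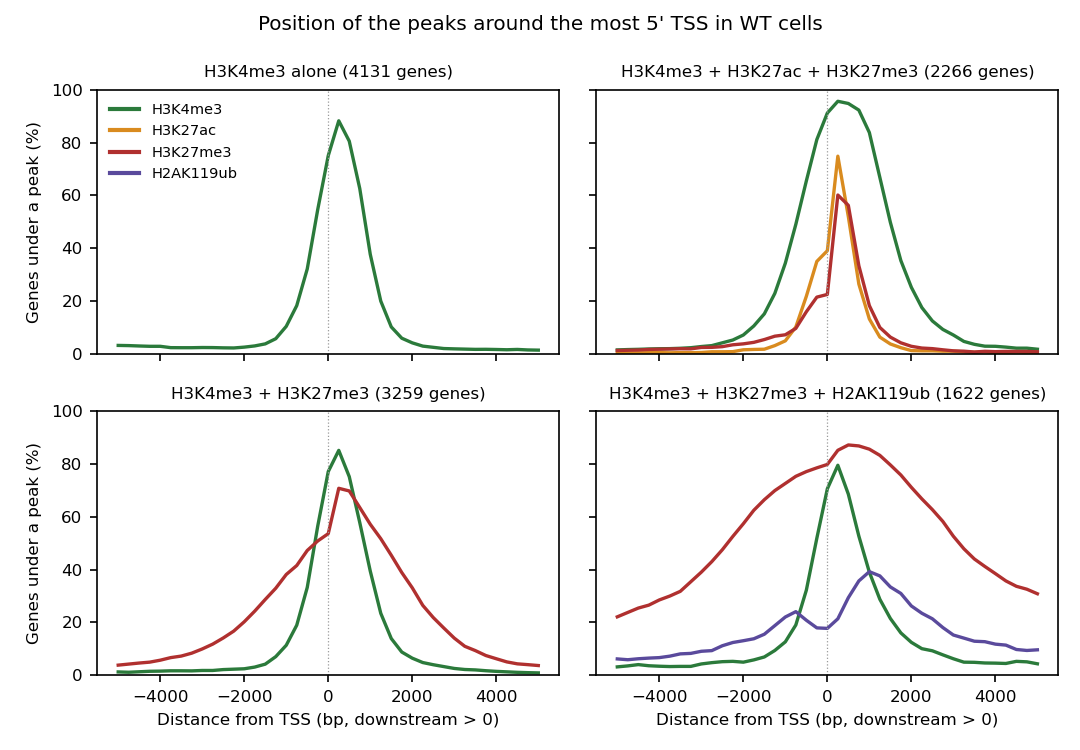
Share of genes under a peak (y axis, percent) by distance from the most 5′ TSS (x axis, bp, positive downstream) in 4 states of WT cells, with 1 line per mark. The H3K27me3 line is narrow beside H3K27ac, with 60.2% at 250 bp downstream, and broad beside H2AK119ub, where the H2AK119ub line has a local dip to 17.7% at the TSS.

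CG content, which the states did not use, differed between them. The CpG ratio is the observed over the expected number of CG dinucleotides in the 500 bp on either side of the most 5′ TSS. Its median was 0.185 without a mark (quartiles 0.119 and 0.291), 0.664 with H3K4me3 alone, 0.697 in the bivalent state and 0.691 with H2AK119ub added. It was 0.80 with H3K4me3 and H3K27ac and 0.842 when H3K27me3 was also there (quartiles 0.750 and 0.919). H3K27me3 alone had a median of 0.411 and H3K27me3 with H2AK119ub 0.399. A ratio of 0.6 or more was found at 1.87% of genes without a mark, 12.9% with H3K27me3 alone, 69.0% of bivalent genes and 92.4% of genes with H3K4me3, H3K27ac and H3K27me3, beside 46.0% of all genes. *Mael*, shown above, had a ratio of 0.689 and lay in the upper part of its state.

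Other features differed as well. A second gene that started within 1000 bp on the opposite strand, in divergent orientation, was found for 24.5% of the genes with H3K4me3, H3K27ac and H3K27me3 and 22.1% of those with H3K4me3 and H3K27ac. The share was 10.2% in the bivalent state, 5.30% with H2AK119ub added and 0.856% without a mark, beside 9.57% of all genes. The median gene length was 39802 bp in the bivalent state, 17707 bp with H2AK119ub added, 26020 bp with H3K27ac and H3K27me3 and 5831 bp without a mark. Genes with several TSSs have more chances to meet a peak. Of 11904 genes with 1 TSS, 50% had no mark, against 21.3% of 10455 genes with several. Among the genes with several TSSs, H3K4me3 alone was the largest state with 23.5%, against 14.1% of the genes with 1. A peak was shared between neighbouring genes at 15.3% of all genes, so such genes are not independent.

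The states were then described through 31 lists of genes, each compared with the share of all genes in the same state. Of 254 symbols written out in these lists, 4 had no row in the annotation and are not analysed here. Lists differ in promoter type, so a share above that of all genes is a description of the list.

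Genes of cytosolic ribosomal proteins were mostly found with H3K4me3, H3K27ac and H3K27me3 together. Proteasome and mitochondrial ribosomal protein genes had smaller shares in this state. Of 85 ribosomal protein genes, 66 (77.6%) were in this state, against 10.1% of all genes, 8 were in H3K4me3 with H3K27ac and 6 in H3K4me3 with H3K27me3. H3K27me3 was found at 72 of them with a median summed length of 877.5 bp (range 274 to 2054 bp), and H2AK119ub at 0. Their 76 distinct H3K27me3 peaks had a median fold enrichment of 3.81, and 58 of them had a −log10 q of at least 3. Whether these short peaks reflect the mark itself was not tested. The 3 genes without any mark were *Rpl10l*, *Rpl39l* and *Rpl3l*, copies that are used in particular tissues. Of 41 proteasome genes, 22 (53.7%) were in the same state as most ribosomal protein genes, such as *Psmd4*, a ubiquitin receptor of the proteasome, with 542 bp of H3K27me3. *Psma8* and *Psmb11*, subunits of the testis and thymus forms, had no mark. Of 76 genes for mitochondrial ribosomal proteins, 29 (38.2%, beside 18.5% of all genes) had H3K4me3 alone and 26 (34.2%, beside 10.1%) the state with H3K27ac and H3K27me3. Of 41 genes for respiratory complex I and its assembly factors, 20 had H3K4me3 alone (48.8%, beside 18.5% of all genes), 8 had H3K4me3 with H3K27ac and 8 had H3K27me3 as well. With at least 500 bp of peaks in the window, the numbers with H3K4me3 alone were 53 of the mitochondrial ribosomal protein genes and 33 of the complex I genes, and 9 proteasome genes had the 3 marks. When peaks had to reach a −log10 q of 3, 44 mitochondrial ribosomal protein genes had H3K4me3 alone and 13 proteasome genes had the 3 marks.

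The 67 replication-dependent histone genes, which lie in clusters and are switched on in S phase, differed from the ribosomal protein genes. H3K4me3 alone was found at 33 and H3K4me3 with H3K27ac at 21, and H3K27me3 at 5 only (7.46%, beside 34.8% of all genes). H3K4me3 covered a median of 1802 bp at the 57 genes that had it. The 5 were *Hist1h1e*, *Hist3h2ba*, *Hist3h2a*, *Hist1h2aa* and *Hist1h2ba*. *Hist3h2a* had 10651 bp of H3K27me3, with 381 bp of H2AK119ub, and *Hist1h1e* had 2210 bp. *Hist1h2aa* and *Hist1h2ba*, histones of male germ cells, had H3K27me3 alone, whereas *Hist1h1t*, another such histone, had H3K4me3 alone. Of 344 zinc finger genes named Zfp, 157 (45.6%, beside 18.5% of all genes) had H3K4me3 alone.

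Lists of developmental regulators of other lineages had larger shares than all genes in the state with H3K4me3, H3K27me3 and H2AK119ub. Of 37 neural transcription factor genes, 31 (83.8%) were in this state, against 7.25% of all genes, and all 37 had H3K27me3. The H2AK119ub peaks behind this were mostly weak. When peaks had to reach a −log10 q of 3, the state held 3 of the neural factors and 0 of the Hox, Fox, T-box, *Irx*, heart, early mesoderm and BMP and GDF genes described next, with 1 each of the Sox and Wnt genes. At the neural factors the median H3K27me3 length was 19717 bp, with a lowest value of 6346 bp and a highest of 44410 bp. *Pax6*, needed for the eye and forebrain, had 36388 bp of H3K27me3 and 11861 bp of H2AK119ub, the most H2AK119ub in the list. *Olig2*, of motor neurons and oligodendrocytes, had 19378 bp and 6369 bp. *Lhx5* and *Neurog1* had the 2 Polycomb marks without H3K4me3. Genes of mature neurons looked different from the factors. Of 28 neuron and synapse genes, 13 (46.4%, beside 14.6% of all genes) were bivalent without H2AK119ub, among them *Grin1*, a subunit of NMDA receptors, with 18921 bp of H3K27me3. A further 8 had H2AK119ub, such as *Gad1*, which makes the transmitter GABA, with 9210 bp of H3K27me3 and 3168 bp of H2AK119ub. *Snap25*, a vesicle fusion protein, had H3K4me3 alone.

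Hox genes, which set position along the body axis, carried the longest domains. The annotation holds 40 records for 39 symbols, since *Hoxa3* has 2 gene identifiers. All 40 had H3K27me3, from 10 distinct peaks, and 39 had H2AK119ub, from 73 peaks. H3K4me3 was also present at 32. The peak over the genes from *Hoxc13* to *Hoxc4* at chr15:102732312-102874778 was the longest of the H3K27me3 list, with 142467 bp. Others measured 99404 bp from *Hoxb9* to *Hoxb2*, at chr11:96111744-96211147, and 70091 bp around *Hoxd13* to *Hoxd3*, at chr2:74483806-74553896. 8 records had the 2 Polycomb marks without H3K4me3 (20%, beside 0.644% of all genes). They were *Hoxa6*, *Hoxa9*, *Hoxc8*, *Hoxc10*, *Hoxc11*, *Hoxc12*, *Hoxc13* and 1 record of *Hoxa3*. In each the H3K27me3 peak was shared with the rest of its cluster, so these genes give few independent observations.

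The other families of homeobox, forkhead and T-box factors followed. All 6 *Irx* genes had H3K4me3, H3K27me3 and H2AK119ub, with 11304 bp of H3K27me3 at *Irx6* and 21170 bp at *Irx2* as the extremes. The same state, with 7.25% of all genes, held 22 of 43 Fox genes (51.2%) and 10 of 17 T-box genes (58.8%). It held 8 of 19 records of Sox genes (42.1%). *Foxm1*, *Foxk1* and *Foxk2*, forkhead factors of proliferating or many cells, had H3K4me3 with H3K27ac. Of the ligands, 12 of 19 Wnt genes (63.2%), 10 of 21 BMP and GDF genes (47.6%) and 6 of 22 FGF genes (27.3%) were in the state with H3K4me3, H3K27me3 and H2AK119ub. *Wnt3a*, a ligand of the early mesoderm, had 7859 bp of H3K27me3 with 290 bp of H3K4me3, and *Wnt1*, a ligand of the midbrain, had 25843 bp of H3K27me3 without H3K4me3. Among 10 Frizzled receptors, which bind Wnt ligands, 5 were bivalent (9 when peaks had to reach a −log10 q of 3), 4 had H2AK119ub in addition, and *Fzd7* had H3K4me3, H3K27ac and H2AK119ub without an H3K27me3 peak.

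Heart genes divided into regulators and structural genes. Of 18, 12 (66.7%, beside 7.25% of all genes) had H3K4me3, H3K27me3 and H2AK119ub, and all 12 encode regulators. *Hand2* had 47263 bp of H3K27me3, *Gata4* 31965 bp, *Isl1* 23731 bp and *Nkx2-5* 18037 bp. The contractile genes *Actc1*, *Myh6* and *Tnnt2* had no mark, and *Myl7*, a light chain of atrial myosin, had H3K27me3 alone with 5367 bp. *Mef2c* and *Myocd*, also regulators, were bivalent without H2AK119ub. H3K27ac was found at 0 of the 18. Of the 18, 0 had the 3 marks when peaks had to reach a −log10 q of 3, and 7 had them with a TSS distance of 1000 bp or with at least 500 bp of peaks in the window. The state with H2AK119ub also held 10 of 20 paraxial and early mesoderm genes (50%, beside 7.25% of all genes). *Mesp1*, of the early heart field, had 3856 bp of H3K27me3 and 224 bp of H2AK119ub. In the endoderm and liver list 7 of 16 genes (43.75%) were in this state, such as *Foxa2* with 31401 bp of H3K27me3. No mark was found at 8 (50%, beside 36.6% of all genes), such as *Alb* and *Afp*, secreted proteins of the liver.

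Blood transcription factor genes were found in 6 states. All 21 had H3K4me3 (beside 60.7% of all genes), with a median summed length of 3955 bp. H3K27me3 was found at 18 (beside 34.8%), H3K27ac at 13 (beside 19.9%) and H2AK119ub at 7 (beside 9.21%). The state with H3K4me3, H3K27ac and H3K27me3 held 8 of them (38.1%, beside 10.1% of all genes), and 5 with a TSS distance of 5000 bp. *Tal1*, which encodes SCL and whose locus drives the reporter, had 6092 bp of H3K4me3, 1833 bp of H3K27ac and 1800 bp of H3K27me3. *Lmo2*, whose product binds SCL, had 4238 bp, 876 bp and 850 bp. *Fli1*, an ETS factor, had 5204 bp, 820 bp and 6349 bp. All 4 marks were found at *Gata2*, *Lyl1* and *Cbfa2t3* (14.3% of the list, beside 0.394% of all genes). *Gata2*, a factor of early blood progenitors, had 7796 bp of H3K4me3, 189 bp of H3K27ac, 7106 bp of H3K27me3 and 5687 bp of H2AK119ub. *Runx1*, needed for definitive blood stem cells, had 6428 bp of H3K4me3 and 6328 bp of H3K27me3. *Gata1*, the main factor of red cells, had H3K4me3 alone with 1129 bp. It lies on the X chromosome, where only 3.0% of genes had H3K27ac and 0 had H2AK119ub. Since the cells were sorted for activity of the *Scl* locus, the marks at *Tal1* are no independent sign of the cell type.

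The markers of 7 cell types were compared with the label of the cells. Of 6 markers of haemangioblast and blood, 6 had H3K4me3 (beside 60.7% of all genes), 5 had H3K27me3 (beside 34.8%) and 4 had H3K27ac (beside 19.9%). *Tal1*, whose locus was used for the sort, was in each of these counts. H3K27ac was found at 0 of 3 endothelial, 0 of 4 heart, 0 of 3 paraxial mesoderm, 0 of 3 endoderm, 0 of 2 neural and 0 of 3 pluripotency markers. H3K27ac was at 19.9% of all genes, so a count of 0 of 2 to 4 markers is close to that share and does not set these cell types apart. In the longer lists, H3K27ac was found at 2 of 20 endothelial genes (*Aplnr* and *Egfl7*) and at 3 of 23 pluripotency genes. It was found at 0 of 18 heart and 0 of 20 paraxial and early mesoderm genes. The count was 0 of 16 for endoderm and liver and 0 of 37 for neural factors. *Kdr*, which encodes the FLK1 receptor, had 4547 bp of H3K4me3 and 306 bp of H3K27me3, and *Etv2*, a factor of blood and vessel precursors, had H3K4me3 alone with 2475 bp. Of the pluripotency markers, *Nanog* had no mark, *Zfp42* had 272 bp of H3K4me3 and *Pou5f1* had 1654 bp of H3K27me3 and 1800 bp of H2AK119ub without H3K4me3. The paraxial genes *Msgn1* and *Meox1* and the endothelial gene *Pecam1* had no mark, and *Cdh5* and *Tek* had H3K4me3 alone with 884 bp and 977 bp. Peaks do not measure expression, and a mixture of cells cannot be told apart from a mixture of marks.

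**Figure D5:**
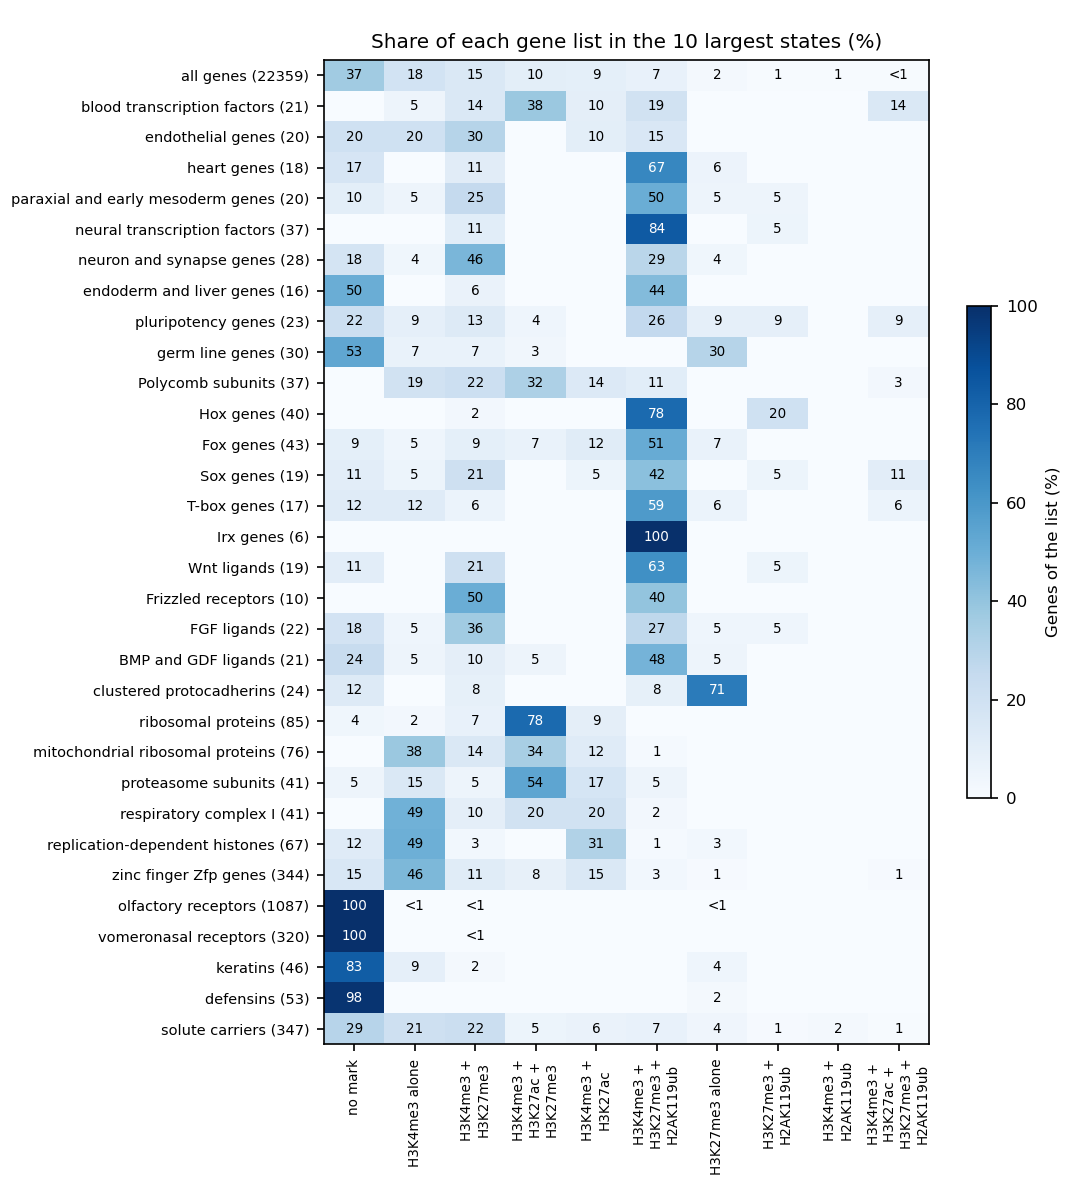
Share of each gene list (percent, printed and shown as colour) in each of the 10 largest states (columns), with all 22359 genes in the top row and the number of annotated genes of each list in brackets; empty cells hold 0 genes. Ribosomal protein genes gather in H3K4me3 + H3K27ac + H3K27me3 (66 of 85), neural transcription factors in H3K4me3 + H3K27me3 + H2AK119ub (31 of 37), protocadherins in H3K27me3 alone (17 of 24) and olfactory receptors in the no-mark state (1083 of 1087).

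H3K27me3 without H3K4me3 was found at 556 genes, and 2 lists had large shares in H3K27me3 alone. Of 24 clustered protocadherins, cell surface proteins that give neurons their identity, 17 (70.8%, beside 1.84% of all genes) had H3K27me3 alone. All of these but *Pcdha3* belonged to the *Pcdhb* cluster. The list itself held only *Pcdha3*, *Pcdha11* and *Pcdhgc5* from other clusters, so the clusters cannot be compared here. *Pcdhb17* had 9941 bp. Of 30 germ line genes, 9 (30%, beside 1.84% of all genes) had H3K27me3 alone and 16 (53.3%, beside 36.6%) had no mark. H2AK119ub was found at 0 of them, beside 9.21% of all genes. The 9 were *Ddx4*, *Dmc1*, *Mael*, *Slc25a31*, *Smc1b*, *Sycp1*, *Sycp2*, *Taf7l* and *Tdrd1*, which serve meiosis and the piRNA pathway. *Ddx4*, a germ cell RNA helicase, had 1829 bp of H3K27me3, *Tdrd1* 1981 bp and *Sycp1*, of the synaptonemal complex, 272 bp. CpG ratios were 0.746 at *Ddx4*, 0.721 at *Sycp1*, 0.672 at *Tdrd1* and 0.648 at *Dmc1*, against a median of 0.411 in this state. The median of all 30 germ line genes was 0.674, so such ratios were not particular to those with H3K27me3 alone. The genes with the longest H3K27me3 alone were *Stra6*, a retinol transporter, with 44468 bp, and *Elovl3*, a fatty acid elongase, with 21906 bp.

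The genes of the Polycomb machinery themselves all had H3K4me3 (37 of 37). The state with H3K27ac and H3K27me3 held 12 of them (32.4%, beside 10.1% of all genes). Among these were *Ezh2* with 442 bp of H3K27me3, *Suz12* with 490 bp, *Rnf2* with 328 bp and *Ring1* with 634 bp. This state held 3 of the Polycomb genes when peaks had to reach a −log10 q of 3. It held 1 with at least 500 bp of peaks in the window. *Eed* and *Jarid2* had H3K4me3 with H3K27ac. Among the chromobox genes, whose products read H3K27me3, *Cbx8* had 36266 bp of H3K27me3 and 2933 bp of H2AK119ub, and *Cbx2* was bivalent with 4670 bp of H3K27me3. *Kdm2b*, whose protein binds unmethylated CG-rich DNA, had all 4 marks.

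The no-mark state held nearly all olfactory receptor, vomeronasal receptor and defensin genes and most keratin genes. It held 1083 of 1087 olfactory receptors (99.6%, beside 36.6% of all genes), 319 of 320 vomeronasal receptors, 52 of 53 defensins and 38 of 46 keratins. *Krt8* and *Krt18*, the keratins of simple epithelia, had H3K4me3 alone, and *Krt79* had H3K27ac alone. The reads had been mapped to unique positions only, so low mappability of such clustered families cannot be told apart from absence of a mark. The longest run of neighbouring genes in 1 state was here, with 226 genes on chromosome 2 from *Lrrc55* to *Olfr1272*. In the other states, 12 genes from *Dnase1l1* to *G6pdx* on the X chromosome had H3K4me3 alone, a state with 32.4% of X-linked genes. A run of 11 genes from *Hoxb13* to *Hoxb1* on chromosome 11 had H3K4me3, H3K27me3 and H2AK119ub. On chromosome 3, 10 genes from *Bola1* to *Hist2h2bb* had H3K4me3 with H3K27ac.

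The genes with the longest peaks of every mark of their state were taken for each state. Among bivalent genes these were *Gata3*, a factor of T cells and other lineages, with 11582 bp of H3K4me3 and 13918 bp of H3K27me3, and *Bcl11a*, the repressor of fetal globin, with 8224 bp and 6733 bp. With H3K4me3, H3K27me3 and H2AK119ub they were *Igf2*, an imprinted growth factor, with 7891, 11784 and 6516 bp, and *Slc32a1*, the vesicular GABA transporter, with 5853, 11298 and 6019 bp. With H3K4me3, H3K27ac and H3K27me3 they were *Epb4.1*, a protein of the red cell skeleton, with 3458, 3481 and 3515 bp, and *Dusp4*, a MAP kinase phosphatase, with 5915, 4167 and 2786 bp. *Setd1b*, which encodes an H3K4 methyltransferase, had 9366 bp of H3K4me3 and 5080 bp of H3K27ac, and *Egfl7*, an endothelial secreted protein, had 3981 and 3924 bp. *Gse1* and *Bahcc1*, both chromatin proteins, led the state with all 4 marks, with 8379 and 8329 bp of H3K4me3 and 2955 and 2981 bp of H3K27me3. *Hoxa9* and *Hoxa6* led the state of the 2 Polycomb marks, with 22101 and 14029 bp of H2AK119ub. In the other small states *Rara*, the retinoic acid receptor alpha, had 923 bp of H2AK119ub beside H3K4me3 and H3K27ac, *Grrp1* had 2546 bp beside H3K4me3, and *Neurl3* had 2131 bp of H2AK119ub alone.

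Chromosomes differed. Of 932 genes on the X chromosome, H2AK119ub was found at 0, which allows a share of up to 0.322%, against 9.62% of 21410 autosomal genes, and the H2AK119ub list held 0 peaks on X. H3K27ac was found at 28 X-linked genes (3.004%, against 20.6%), H3K27me3 at 111 (11.9%, against 35.9%) and H3K4me3 at 419 (44.96%, against 61.4%). The median fold enrichment of H3K4me3 peaks was 5.50 on X and 6.48 on autosomes. The 4 X-linked ribosomal protein genes *Rpl10*, *Rpl39*, *Rps4x* and *Rpl36a* had H3K4me3 and no H3K27ac, whereas 74 of 81 autosomal ones had H3K27ac. On chromosome 8, H2AK119ub was found at 18.9% of 1082 genes, H3K27ac at 27.4%, H3K27me3 at 45.7% and H3K4me3 at 68.1%. Each of the 4 marks was thus above its share of autosomal genes. Of the 88 genes with all 4 marks, 24 lay there, 2.22% of its genes against 0.411% of autosomal genes. The number of copies of each chromosome in these cells was not measured here, and its part in these values was not tested. Chromosomes 1, 8, X and Y were then left out, an alternative chosen after the data were seen. The largest states held similar shares, with 14.98% in the bivalent state and 10.01% with H3K4me3, H3K27ac and H3K27me3.

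The states were assigned again from the 4 Delta lists, to see how many genes had the same state in a second set of libraries. Genotype and library cannot be told apart in this comparison. The same state was found for 74.1% of all genes and for 60.1% of the 14181 genes with a mark in WT. By state, the share was 98.4% for no mark (95% Wilson interval 98.1 to 98.7), 67.7% for H3K4me3 alone (66.2 to 69.1), 66.8% for the bivalent state (65.2 to 68.4), 55.3% for H3K4me3 with H3K27ac and H3K27me3 (53.2 to 57.3), 48.0% with H3K4me3, H3K27me3 and H2AK119ub (45.6 to 50.5) and 29.2% for H3K27me3 with H2AK119ub (22.4 to 37.05). The marks differed in this respect. Of the 1622 genes with H3K4me3, H3K27me3 and H2AK119ub in WT, 97.8% had H3K27me3 in Delta and 50.9% had H2AK119ub. Of the 2266 genes with H3K4me3, H3K27ac and H3K27me3, 87.5% had H3K27ac in Delta and 61.6% had H3K27me3. Of 129 genes with H3K4me3 and H2AK119ub and no H3K27me3, 7 were in the same state again. At the 85 ribosomal protein genes H3K27me3 was found at 61 in Delta, beside 72 in WT.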

How the data were processed

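ChIP-Rx libraries of 4 marks and 2 genotypes, with 2 inputs, were described in the labels, and the 4 WT lists of broad peaks were used here, with the 4 Delta lists for 1 comparison. According to the study's methods and the submitters' processing notes, the authors trimmed reads with Trim Galore, mapped uniquely aligning reads to mm9 and dm3 with Bowtie, removed duplicates, and found broad peaks (cutoff 0.05) with MACS2 2.0.10, 1 library at a time, each against its own genotype's input. Scaling to the spike-in was not described for peaks, so the lists do not show global levels of a mark. The authors deposited for each peak a score, not used here, a fold enrichment, which is a ratio to the local background, and −log10 p and q values. The largest q was 0.0500. The lists hold no read numbers. The study states read totals for each library, which were not used here.

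Coding TSSs (46015) of 22359 protein-coding genes came from GENCODE M1, on the same build, NCBIM37 (mm9). The mitochondrial chromosome was left out. Coordinates are 1-based. Sequences were read from this genome at the most 5′ TSS. Peaks at a gene are those whose nearest base is within 2500 bp of any of its TSSs. Shares have 95% Wilson intervals, which cover counting error only, and the share that a count of 0 allows is that of 3 counts. With 1 library per mark no test was run. The genes with each mark differed from those found with bedtools 2.31.1 at 0 genes. Python 3.11.15, numpy 2.4.6, pandas 2.3.3, scipy 1.17.1 and matplotlib 3.10.9 were used. Alternatives were a TSS distance of 1000 or 5000 bp, a −log10 q of at least 3, 1 TSS per gene, at least 500 bp of peaks in the window, at least 500 bp of overlap and a CpG window of 250 bp.

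The states and the gene lists were chosen with earlier results of these data known. The genes named are members of these lists and, for each state, the 2 genes with the longest shortest mark, leaving out symbols of predicted genes and genes with the same peaks. The numbers of genes on single chromosomes and the genes around the longest peaks were singled out after their values were seen.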

Additional observations from a re-analysis of the deposited data

How the results depend on the processing

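No paired analysis was possible, because each mark had only 1 library in WT. Of 416 values recomputed under other settings, 287 stayed within the counting error of the reported value (for counts of genes, within 1.5 times) and 129 did not. The cause of these differences was not tested. With a −log10 q of at least 3, 58 genes had H2AK119ub. H3K4me3 alone then held 6286 genes, H3K4me3 with H3K27ac and H3K27me3 held 895, H3K4me3 with H3K27me3 and H2AK119ub 47, H3K27me3 with H2AK119ub 9, H3K27ac alone 7 and all 4 marks 2, and 0 genes were in any other state with H2AK119ub. H3K27me3 was at 100% of H2AK119ub genes, 35.5% of H3K4me3 genes and 29.2% of H3K27ac genes, H3K4me3 at 88.3% of H3K27me3 genes and 99.8% of H3K27ac genes, and H3K27ac at 17% of H3K27me3 genes. H3K4me3 and H3K27me3 peaks overlapped at 97.1%. Median H3K27me3 lengths were 3818 bp in the bivalent state, 676 bp with H3K27ac, 6884 bp with H2AK119ub and 3276 bp alone, so their order was kept. Median CpG ratios were 0.192 without a mark, 0.702 with H3K4me3 alone, 0.827 with H3K27ac, 0.853 with H3K27me3 in addition and 0.458 for H3K27me3 alone. The share in the same state in Delta was 98% for no mark, 78% for H3K4me3 alone, 77.1% for the bivalent state, 34.1% with H3K27ac and H3K27me3, and 2.13% of 47 genes with H2AK119ub.

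With at least 500 bp of peaks in the window, 2497 genes had H3K27ac, 987 had H3K4me3, H3K27ac and H3K27me3, 670 had H3K27me3 alone, 30 had all 4 marks and 14 had H3K4me3, H3K27ac and H2AK119ub. H3K4me3 was at 86.3% of H3K27me3 genes, H3K27me3 at 41.8% of H3K4me3 and 40.7% of H3K27ac genes, and H3K27ac at 16.4% of H3K27me3 genes. Median H3K27me3 lengths were 2615, 885, 6613 and 2266 bp in the bivalent state, with H3K27ac, with H2AK119ub and alone. Median CpG ratios were 0.193 (no mark), 0.711 (H3K4me3 alone), 0.830 (H3K27ac), 0.719 (bivalent), 0.860 (H3K27ac and H3K27me3), 0.707 (H2AK119ub) and 0.453 (H3K27me3 alone). The shares in the same state in Delta were 98%, 77.4%, 54.9%, 69.2%, 41.3% and 43% for the first 6 of these. A CpG window of 250 bp gave 0.191, 0.737, 0.862, 0.750, 0.886, 0.732 and 0.432 in the order of the CpG ratios above.

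With a TSS distance of 1000 bp, 57 genes had all 4 marks, 51.7% of H3K4me3 genes had H3K27me3, the median H3K27me3 length was 2286 bp in the bivalent state and 2050 bp alone, and 40.9% of genes with H3K4me3, H3K27me3 and H2AK119ub had the same state in Delta. Peaks overlapped at 97.7% (H3K4me3 and H3K27me3), 94% (H3K27ac and H3K27me3) and 96.6% of genes (the Polycomb marks). At 2500 bp, with at least 500 bp in common, these were 67%, 33.1% and 68.3%. With 5000 bp, 136 genes had all 4 marks, 54.7% of H3K4me3 genes had H3K27me3, and median CpG ratios were 0.679 with H2AK119ub and 0.380 for H3K27me3 alone. With 1 TSS per gene, H3K4me3 was at 92.2% of H3K27me3 genes, and median CpG ratios were 0.707 (bivalent) and 0.703 (with H2AK119ub). Without chromosomes 1, 8, X and Y, chosen after the data were seen, all 17 shares of genes stayed within 1.5 times. The weak H2AK119ub peaks limit what absence of that mark can mean.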
